A study of Homo sapiens with 2 samples.

Results

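The mRNAs that encode the microRNA machinery were examined for contacts with RBM47, an RNA-binding protein. The set held 10 genes: the Argonautes AGO1, AGO2, AGO3 and AGO4, the TNRC6 proteins TNRC6A, TNRC6B and TNRC6C, and DICER1, DROSHA and XPO5. Members were chosen by name, and every cluster of sequenced fragments that carried one of these symbols was taken. All 10 genes were found, with 255 of the 233546 deposited clusters, of which 170251 carried a gene ID. Matching by Entrez gene ID gave the same 255 clusters.

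MicroRNAs are cut from hairpin transcripts in the nucleus by DROSHA, carried to the cytoplasm by the export receptor XPO5 and trimmed to their final length by DICER1. An Argonaute protein then holds the microRNA and finds matching mRNAs, and a TNRC6 protein bound to Argonaute recruits the enzymes that shorten the poly(A) tail and remove the cap. The mRNAs of this machinery can themselves be bound by other RNA-binding proteins, often in their 3'UTRs.

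The cells were MDA231-BrM2a, a brain metastatic line derived from MDA-MB-231 breast cancer cells. They carried Flag-tagged wild-type RBM47 behind a promoter switched on by doxycycline, which was given at 1 ng/ml for 3 days. Whether they were a single clone is not stated for these libraries. HITS-CLIP joins a protein to its RNA contacts with ultraviolet light, recovers it here with an antibody to Flag, and sequences the short RNA pieces that come with it. The labels gave 1 group with 2 replicates and do not say whether these were separate cultures. No control library was analysed, so no conditions were compared and nonspecific recovery of RNA was not measured by sequencing. On autoradiograms, the study detected no labelled RNA from cells without ultraviolet light or from cells with an empty vector.

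A tag is a unique sequenced fragment, and a cluster is a stretch of overlapping tags. Both libraries had a tag or more in every listed cluster, and no cluster had a total below 5. Its columns summed to 999047 tags in replicate 1 and 3489697 tags in replicate 2, so replicate 1 gave the less precise values, and 156 of the 255 clusters held no more than 2 tags there. Tags follow both the amount of an mRNA in the cells and how much of it was bound, and these cannot be told apart here. Of the marker genes for the cell line, VIM, CD44 and EGFR held 3345, 8676 and 6569 tags, and RBM47, which the transgene supplies, held 1949. KRT8 and KRT18 had no listed cluster although the line is known to make them, and neither had ESR1, PGR, GATA3 or CDH1, which the line makes at low levels.

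Among named clusters, RBM47 contacts on the machinery mRNAs were concentrated in 4 genes. In clusters of at least 10 tags, TNRC6B held 817 tags, DICER1 held 699, AGO2 held 516 and TNRC6A held 168. These 4 of 10 genes passed 100 tags, which the study used as its mark for strong binding, against 39.9% of all 7712 genes with a cluster. A cluster of at least 10 tags was present in 7 of the 10 genes, against 72.6% of all genes. DROSHA, XPO5 and TNRC6C had none. Neither count of the machinery genes was far from its background share. With the unnamed downstream clusters described below added, 5 of the 10 genes passed 100 tags. AGO3 was the added gene, with 885 unnamed tags in clusters of at least 10 beside 83 named tags. The background share was not recounted in this way.

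Counted by tags in such clusters, TNRC6B ranked 819th and DICER1 961st among the genes, ahead of AGO2 at 1255th, TNRC6A at 2481st and AGO3 at 3287th. AGO1 and AGO4 ranked 4494th and 4625th. These ranks are of tags in named clusters only, not scaled by length, and the order of the first 3 depended on the cut. With a minimum of 30 tags, AGO2 led at 0.0782 tags per 1000 table tags, with DICER1 at 0.0439 and TNRC6B at 0.0404, and from replicate 1 alone they stood at 0.0681, 0.0310 and 0.0110. At the level of single clusters, 116 of the 255 held at least 10 tags, or 45.5%, where 41.6% of all clusters with a gene ID did. Only 1 of the 255, or 0.392%, reached 100 tags, against a background of 2.20%. The median cluster of the machinery mRNAs held 9 tags over 84 nt, where the median named cluster held 8 tags over 82 nt.

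To compare levels between genes, tags were scaled by length, as exonic tags per kb of transcript and per 1000000 tags of the replicate in the table. Exonic tags here leave out clusters labelled as intron. On this scale DICER1 stood highest, at 17.2 in replicate 1 and 18.4 in replicate 2 (mean 17.8 ± 0.902, SD, n = 2). TNRC6B followed at 12.8 and 11.9 (12.4 ± 0.575). The replicates of these 2 genes did not overlap, so their order was the same in both libraries.

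TNRC6A, at 9.31 and 7.80 (8.55 ± 1.07), and AGO2, at 8.30 and 8.62 (8.46 ± 0.227), came next and overlapped each other. All 4 of these genes lay above the median of 3.98 over 7126 genes with a matched transcript length. The other 6 lay below it. These values count named clusters only, which reach a small part of the GENCODE 3'UTR in AGO1, AGO2 and AGO3. With the unnamed downstream clusters described below added, AGO3 came to a mean of 13.2, above this median, and AGO1 to 2.58, still below it. The median itself counts named clusters only and was not recounted with such clusters added for the other genes. AGO4 (1.51 and 0.867), AGO1 (1.02 and 1.34) and XPO5 (1.13 and 0.861) could not be ordered, because the replicate values of AGO4 overlapped those of AGO1 and those of AGO1 overlapped those of XPO5. AGO3 was at 0.764 and 0.700, DROSHA at 0.554 and 0.688, and TNRC6C at 0.0963 and 0.110, where its value rests on a single cluster. The median of the 10 genes was 1.19.

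**Figure D1:**
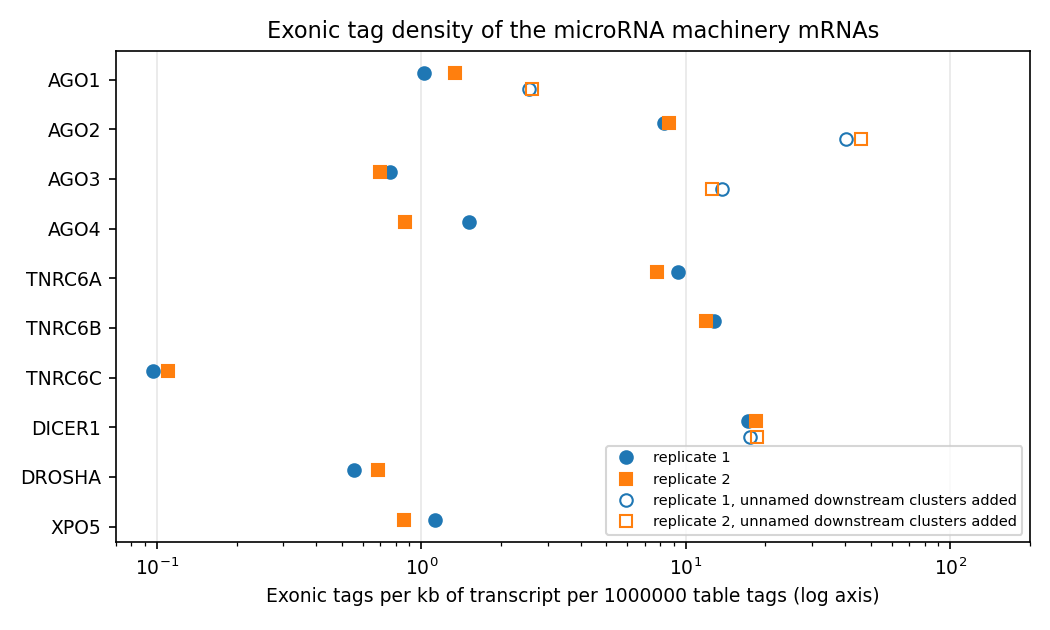
Exonic tags per kb of transcript per 1000000 table tags, on a log axis, for each of the 10 mRNAs, with filled circles for replicate 1 and filled squares for replicate 2. Open symbols add the unnamed clusters that follow a gene on its strand, which moves AGO2 from a mean of 8.46 to 43.1 and AGO3 from 0.732 to 13.2 and moves AGO1 from 1.18 to 2.58, DICER1 little and the other 6 mRNAs not at all.

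Among named clusters, the 3'UTR held most of the tags of TNRC6B, and the coding sequence (CDS) held as many or more than the 3'UTR in AGO2 and DICER1. For AGO2 this turned once unnamed clusters downstream of the gene were counted with the 3'UTR, which was then 2.45 times as dense as the CDS in replicate 1 and 2.31 times in replicate 2. Over all deposited clusters, TNRC6B had 92.3% of its 1014 tags in the 3'UTR, 4.64% in the CDS and 3.06% in introns. DICER1 had 44.8% of 844 tags in the 3'UTR and 49.4% in the CDS. AGO2 had 40.7% of 558 tags in the 3'UTR and 42.3% in the CDS, and a further 15.9% lay in 1 cluster that spans the stop codon. The median gene in the table had 52.7% of its tags in the 3'UTR and 2.86% in the CDS.

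TNRC6A was divided among all of these regions, with 22.5% of 449 tags in the 3'UTR, 33.2% in the CDS, 32.5% in introns and 11.8% in clusters with more than 1 label. AGO3 had 67.0% of 191 tags in introns and 26.2% in the 3'UTR. AGO1 had 92.1% of 76 tags in the 3'UTR, and AGO4 had 68.8% of 32. The small counts of DROSHA, with 16 of 22 tags in the CDS, and XPO5, with 9 of 34 tags in the 3'UTR, allow no firm split. TNRC6C had its 5 tags in the 3'UTR.

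**Figure D2:**
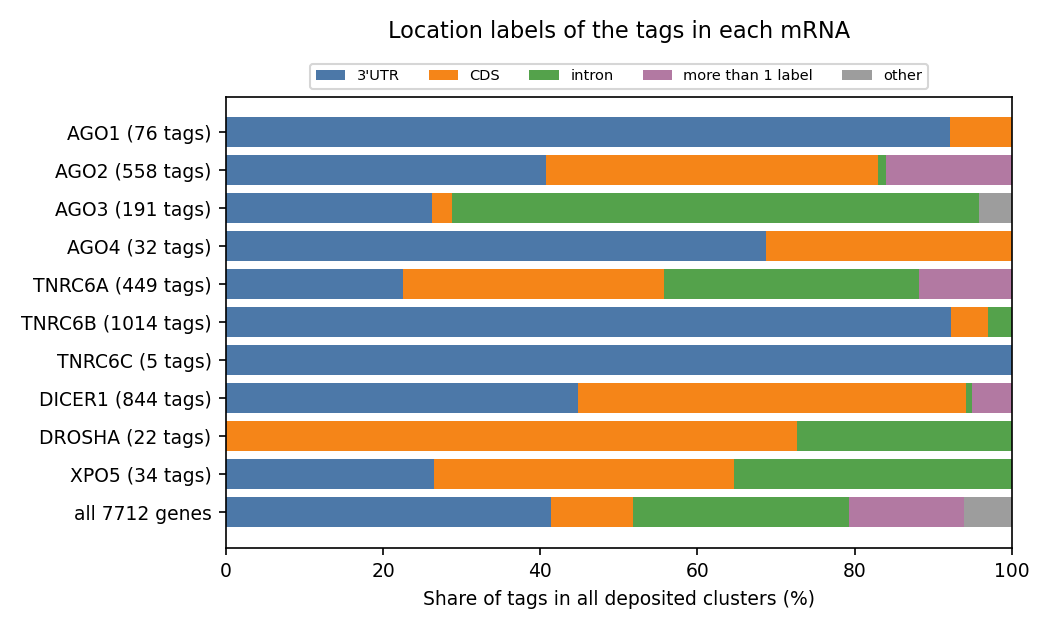
Share of tags in all deposited clusters by the location label of the cluster, in percent, for each mRNA and for all 7712 genes, with the number of tags beside each name. TNRC6B and AGO1 are almost wholly 3'UTR, AGO2 and DICER1 are close to evenly split between 3'UTR and CDS, and AGO3 is mostly intron, all for named clusters only, which leaves out 2359 unnamed tags downstream of AGO2 and 1058 downstream of AGO3.

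With the 10 genes pooled and clusters of at least 10 tags taken, 64.3% ± 2.70 of the tags were in 3'UTRs, 26.1% ± 3.58 in coding sequence and 3.36% ± 0.439 in introns (SD, n = 2). The same shares over all genes were 47.1% ± 0.358, 10.1% ± 0.178 and 18.9% ± 0.539. The pooled 3'UTR share rested on TNRC6B. Without TNRC6B it was 46.0% ± 3.56, which differed from that of all genes by less than its own SD. The other shares still differed from all genes, with 39.2% ± 5.12 in coding sequence and 5.20% ± 0.744 in introns. All of these shares count named clusters only, which leaves out the unnamed tags downstream of AGO2 and AGO3 described below.

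Since coding sequences and 3'UTRs differ in length, the regions of a gene were also compared per kb of each region. In TNRC6B the 3'UTR was 7.41 times as dense in tags as the CDS in replicate 1 and 9.37 times in replicate 2. DICER1 gave 1.49 and 1.16, and TNRC6A gave 2.29 and 1.53. The median over 3656 genes with tags in both regions was 3.24 in replicate 1, with quartiles of 1.49 and 6.54, and 3.52 in replicate 2, with quartiles of 1.70 and 7.10. TNRC6B thus lay above the upper quartile in both libraries. DICER1 lay below the lower quartile in replicate 2 and level with it in replicate 1.

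The density of the coding sequence set AGO2 and DICER1 apart from the TNRC6 pair. AGO2 CDS clusters held 17.9 tags per kb of CDS per 1000000 in replicate 1 and 21.7 in replicate 2, and DICER1 CDS clusters held 13.9 and 16.9. TNRC6A held 5.44 and 5.84, and TNRC6B 2.37 and 1.77. The DICER1 and AGO2 values did not overlap those of the TNRC6 genes. The named 3'UTR clusters of AGO2 reached only 1271 nt, where the GENCODE 3'UTR is 11888 nt long, so the named tags alone do not give the density of its 3'UTR.

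TNRC6B, which encodes a scaffold that links Argonaute to the deadenylases, was contacted along its 3'UTR from end to end. It had 62 3'UTR clusters over 12517 nt, against a GENCODE 3'UTR of 12567 nt, with 54.7% of this stretch covered. The median gap between neighbouring clusters was 71 nt and the largest 444 nt. Its largest cluster, at chr22:39051160-39051280 on the plus strand (hg18), held 8 tags in replicate 1 and 30 in replicate 2, and by the authors' total 3.75% of the gene's tags. Over all genes the largest cluster took a median of 27.8% of the tags, and the median number of clusters was 9. TNRC6B had 72 clusters, and with more clusters each tends to hold a smaller share.

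DICER1, which encodes the cytoplasmic RNase III enzyme, had 25 3'UTR clusters over 4188 nt with 59.4% covered, against a GENCODE 3'UTR of 4270 nt. It also had 29 CDS clusters. Its largest 3'UTR cluster (chr14:94622764-94623065, minus strand) held 10 and 44 tags in replicates 1 and 2, and its largest CDS cluster (chr14:94639453-94639735) held 11 and 42. The contacts on DICER1 were therefore close to equal in size in both regions.

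AGO2 encodes the human Argonaute best known for cutting its target RNA. Its 20 named clusters held 123 tags in replicate 1 and 443 in replicate 2. The largest was in the 3'UTR at chr8:141610153-141610544 on the minus strand, with 22 and 94 tags, and it was the only cluster of the 10 genes to reach 100 tags. The cluster that spans the stop codon, at chr8:141611106-141611424, held 21 and 69 tags. Between the first and the last AGO2 cluster the table also listed 4 clusters with 29 tags under RNU6-31P, the symbol of a U6 pseudogene, on the same strand. In all, 8 clusters with 52 tags carried that symbol, all on the chromosome and strand of AGO2, and 3 were labelled CDS. Whether these belong to AGO2 was not tested.

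TNRC6A encodes another scaffold of the TNRC6 family. Its 21 intron clusters, with 146 tags, all lay upstream of its first CDS cluster, within 14264 nt of the 94770 nt that its clusters spanned. The largest cluster was in the 3'UTR at chr16:24743840-24743939 on the plus strand, with 8 tags in replicate 1 and 9 in replicate 2. No cluster of TNRC6A exceeded 17 tags, so its 449 tags came from 57 small clusters.

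AGO1, AGO3 and AGO4 encode Argonautes that repress through TNRC6 proteins, and their genes lie side by side on chromosome 1. AGO3 had 18 intron clusters with 128 tags over 56681 nt. Its largest cluster was in the 3'UTR (chr1:36294425-36294622, plus strand), with 5 and 27 tags. The largest AGO1 cluster (chr1:36162161-36162281) held 2 and 13 tags, and the largest AGO4 cluster (chr1:36092985-36093037) held 6 and 6. These are counts at which 1 cluster says little about a difference between libraries.

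The enzyme and the carrier of the nuclear steps held few tags. XPO5, the export receptor, had 34 tags in 5 clusters, the largest at chr6:43598730-43598804 in the 3'UTR with 3 and 6 tags. DROSHA, the nuclear RNase III enzyme, had 22 tags in 4 clusters, of which a CDS cluster at chr5:31544558-31544644 (1 and 5 tags) and an intron cluster at chr5:31518406-31518468 (2 and 4 tags) were equally large. DROSHA was the exception among the 10 genes, since in the other 9 the largest cluster lay in the 3'UTR alone. TNRC6C had its 1 cluster at chr17:73612875-73612915, with 1 and 4 tags.

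More tags followed AGO2 and AGO3 on the same strand, in clusters with no gene name, than lay in the clusters named for them. Unnamed clusters were collected downstream of each gene from its last named cluster, for as long as they carried no gene ID and lay no more than 2000 nt apart, a choice made after the values were seen. AGO2 was followed by 52 such clusters with 2359 tags, 466 in replicate 1 and 1902 in replicate 2, against 558 tags under its own name. They ran from 141599504 to 141610150 on chromosome 8. AGO3 was followed by 60 clusters with 1058 tags, 255 and 816, against 191 named tags, from 36294711 to 36310204 on chromosome 1. For both genes the unnamed tags outnumbered the named tags, by 4.23 times and 5.54 times.

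AGO1 was followed by 12 clusters with 81 tags, 21 and 61, against 76 named tags, and DICER1 by 2 clusters with 12 tags. The other 6 genes had none. A gene with more unnamed downstream tags than named tags was uncommon, at 4.27% of 7708 genes, and 18.0% had any unnamed downstream cluster at all. At least 400 such tags were found for AGO2 and AGO3 and for 2.46% of all genes. The largest unnamed cluster downstream of AGO2 (chr8:141602633-141603416) held 67 and 213 tags, more than any named cluster of the 10 genes. The largest downstream of AGO3 (chr1:36296313-36296873) held 20 and 101.

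These stretches were set beside transcript lengths from GENCODE. From the AGO2 cluster that spans the stop codon to the last unnamed cluster was 11920 nt, counted from its upstream edge, on the CDS side. Counted from its downstream edge it was 11602 nt. The GENCODE 3'UTR of AGO2 is 11888 nt long. The named 3'UTR clusters and the unnamed clusters spanned 16062 nt together in AGO3, where the GENCODE 3'UTR is 16755 nt, and 9870 nt in AGO1, where it is 10925 nt. The authors labelled the AGO2 clusters as unclassified exon (17 clusters, 881 tags), as within 10 kb downstream of a gene and upstream of another (25 clusters, 1140 tags) or as within 10 kb downstream (10 clusters, 338 tags). These are lengths only. The transcript of origin of the unnamed tags was not tested.

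With the unnamed clusters added, AGO2 rose to the top of the order at 40.3 exonic tags per kb of transcript per 1000000 in replicate 1 and 46.0 in replicate 2 (43.1 ± 4.03). Its 3'UTR then held 43.8 and 50.1 tags per kb, which was 2.45 and 2.31 times its CDS density. AGO3 came to 13.7 and 12.6 (13.2 ± 0.815), overlapping TNRC6B, and AGO1 to 2.55 and 2.61. How far apart clusters may lie mattered for AGO1 and AGO3. At no more than 500 nt, the unnamed tags were 0 for AGO1 and 10 for AGO3, and for AGO2 they stayed at 2359.

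**Figure D3:**
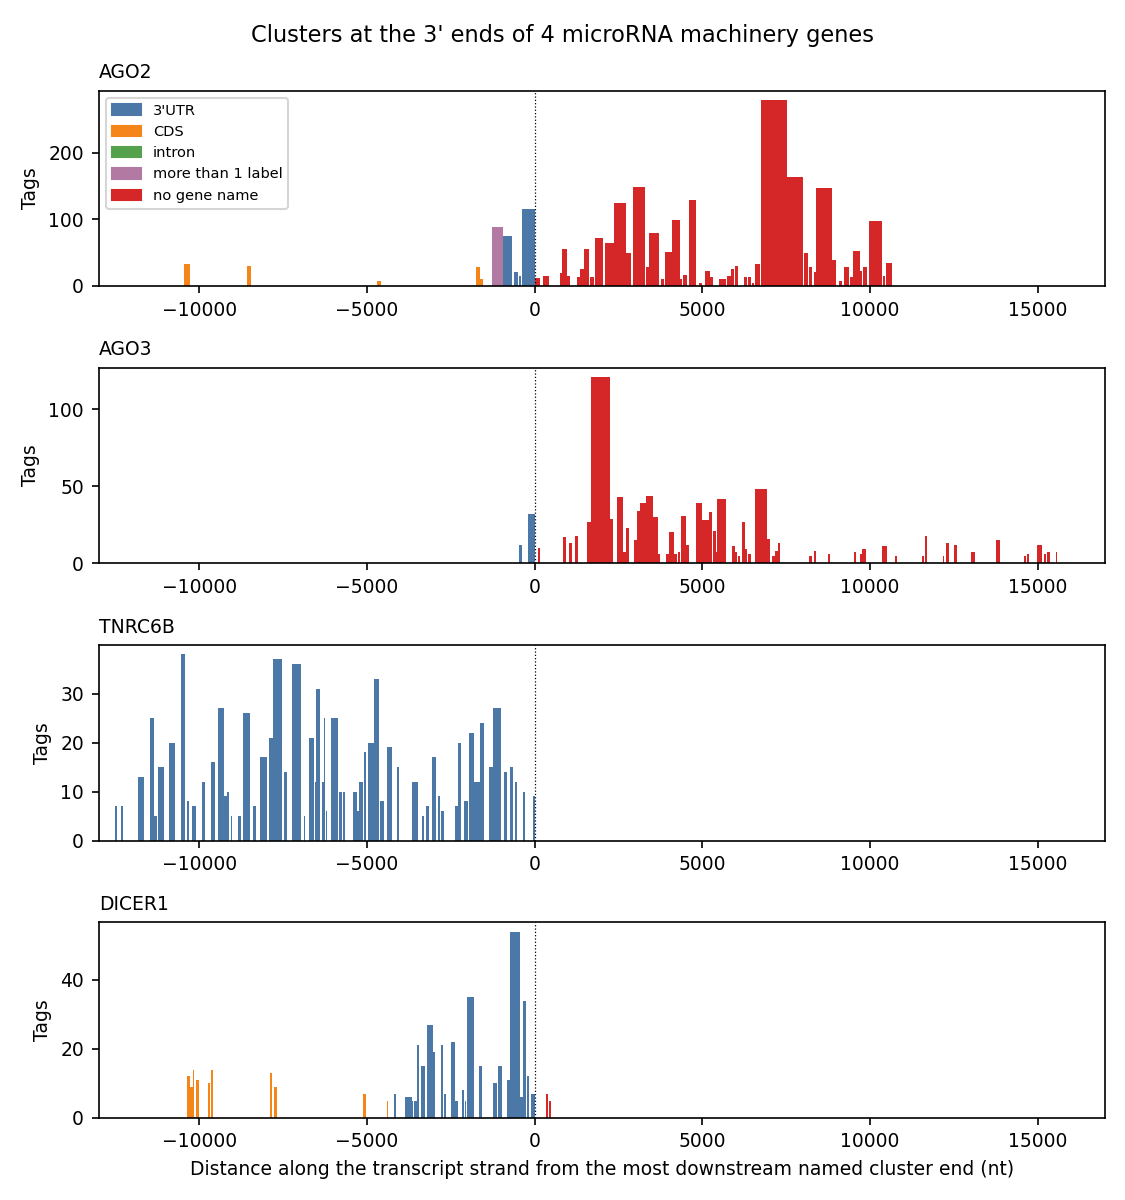
Clusters near the 3' ends of AGO2, AGO3, TNRC6B and DICER1 along each gene's own strand, with the distance in nt from the downstream end of its last named cluster on the x axis and the tags of each cluster as bar height, on a separate scale for each gene. Red bars carry no gene name. They hold 2359 tags in AGO2 and 1058 in AGO3, none lie within reach of TNRC6B, and DICER1 has 12 tags.

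The replicates were compared for every cluster and gene, which tests whether the libraries divide a gene's tags as they divide all tags. The replicate 1 share over all genes was 22.0%. Among the 10 genes it ran from 17.9% in AGO1 (Wilson 95% interval 11.0% to 27.9%) to 33.3% in AGO4 (19.8% to 50.4%). The better covered genes were nearer to each other, with TNRC6B at 23.8% (21.3% to 26.5%), DICER1 at 21.0% (18.4% to 23.9%) and AGO2 at 21.7% (18.5% to 25.3%). Every one of the 10 intervals included the share over all genes.

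With Benjamini-Hochberg adjustment over all genes, the exact binomial test called 0 of the 10 genes at 0.05, against 1.52% of all genes, and adjusted p ran from 0.607 to 1. At an unadjusted p under 0.05 it was also 0 of 10, against 10.5% of all genes. Among the clusters, 0 of 255 passed, against 0.0111% of all clusters, and 5 passed unadjusted, against 3.04%. The median of these 255 clusters held 9 tags, so for most of them only an extreme split could pass. The beta-binomial test, which allows for spread beyond counting error, called 0 genes and 0 clusters. The unnamed tags had replicate 1 shares of 19.7% downstream of AGO2 (18.1% to 21.3%) and 23.8% downstream of AGO3 (21.4% to 26.5%). The interval for AGO2 lay just below the share over all genes.

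**Figure D4:**
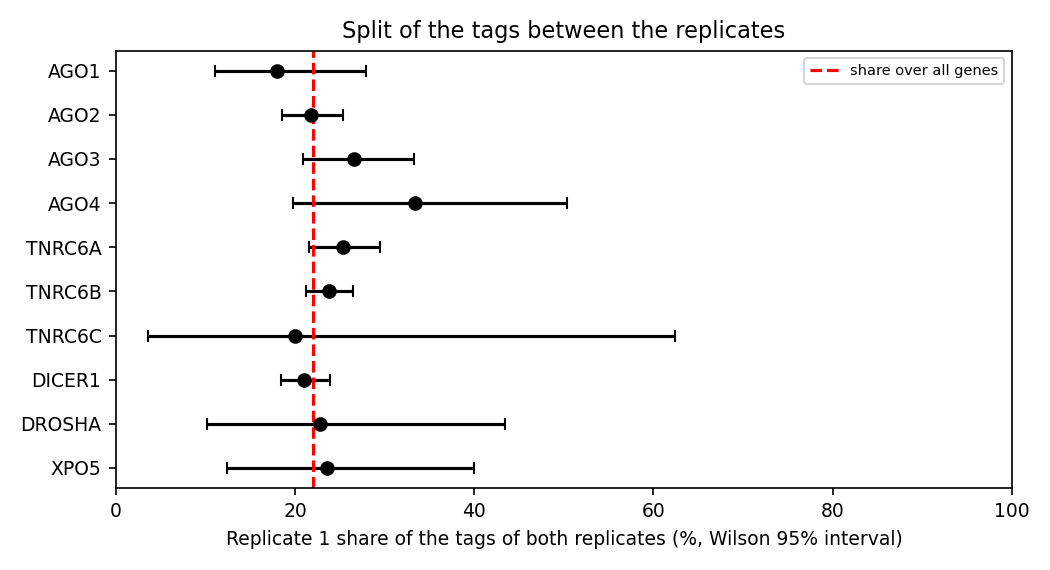
Replicate 1 share of the tags of both replicates for each mRNA, in percent, with Wilson 95% intervals that cover counting error only, and a dashed line at the 22.0% over all genes. All 10 intervals cross the line, and they are wide for TNRC6C, DROSHA and AGO4, which have few tags.

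The partners of this machinery were examined through a list of 63 other genes of the pathway. Of these, 47 had a cluster and 37 held more than 100 tags in clusters of at least 10. That is 58.7% of the list and 78.7% of its genes with a cluster, against 39.9% of all genes with a cluster. The list was chosen with earlier results of these data known, and tags also follow the amount of an mRNA. These shares are therefore a description, and their difference was not tested. Among nuclear processing factors, 4 of 7 passed 100 tags, with the helicases DDX17 and DDX5 at 776 and 704. DGCR8, the RNA-binding partner of DROSHA, had no listed cluster. Both export genes passed, with XPO1 at 705 and the GTPase RAN at 137, unlike XPO5 itself. Of the DICER1 partners, PRKRA had 38 tags, none in clusters of at least 10, and TARBP2 had no listed cluster.

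Downstream of DICER1 in the pathway, all 5 genes for Argonaute loading and import passed 100 tags. The import receptor TNPO1 held 2307 tags and the chaperone HSP90AA1 held 538. Of 11 genes for proteins associated with the silencing complex 5 passed, led by PUM2, a 3'UTR-binding repressor (2292). Of 10 genes for precursor uridylation and decay 7 passed, led by PAPD4, a poly(A) polymerase also named TENT2 (404), and ZCCHC6, a uridylyltransferase also named TUT7 (318).

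The enzymes that the TNRC6 proteins recruit also carried tags. Of 17 deadenylation genes 9 passed, with PAN3, a deadenylase subunit, at 1686 tags and PABPC1, the poly(A)-binding protein, at 1466. Of 9 decapping and repression genes 5 passed, with the decapping enzyme DCP2 at 2707 and the helicase DDX6 at 1057. DCP2 was the 1 gene, of the 47 with a cluster, whose replicate split passed the exact binomial test over all genes (adjusted p = 0.0285). That count was near the background, as 1.52% of all genes passed, and this test does not allow for spread beyond counting error. These tags are not scaled by length and include introns, which held 92.6% of the tags of PAN3.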

How the data were processed

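HITS-CLIP was measured in 2 replicates of 1 group. The authors aligned reads, removed copies to leave unique tags and merged these into clusters, and deposited the tag counts of each cluster for each replicate, with a total. The submitters' processing notes name Novoalign and the build hg18. Coordinates are given as deposited, and whether they count from 0 or 1 is not known. In 28 of the 255 clusters the replicate columns summed to more than the total, by 42 tags.

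The members and lists were chosen with earlier results of these data known. All 10 members were named, with the largest cluster of each, and of the other pathway genes the 2 with most tags per step, of which 1 is not reported here. Transcript lengths are those of MANE Select in GENCODE 44 on GRCh37, matched by symbol for 7126 of 7712 genes, and no coordinates were converted. Splits between replicates were tested with a two-sided exact binomial test (scipy 1.17.1), Benjamini-Hochberg adjusted over the whole table. On simulated data it recovered 92.5% of 200 clusters changed 4-fold in odds among 233546, and 83.0% of 200 genes changed 2-fold among 7712. It called 0 unchanged clusters and 8 unchanged genes. The simulated counts held counting error only, whereas 10.5% of the real genes had an unadjusted exact binomial p under 0.05. The simulation therefore does not give the rate of false calls in these libraries. The changed clusters and genes were drawn only from those with at least 100 tags. In the set studied, 1 of the 255 clusters and 5 of the 10 genes reached that, so the recovery does not describe the rest. The binomial test compares these libraries, and intervals cover counting error only. Alternatives were other tag minimums, each replicate alone, other totals and labels, and added unnamed clusters.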

Additional observations from a re-analysis of the deposited data

Results flagged for a closer look

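Tags outside the named clusters followed 4 of the genes on their own strand, where 18.0% of all genes had any such cluster. No control library was analysed, so any count above 0 was listed here, and the listing is a description and not a test. The unnamed clusters held 2359 tags downstream of AGO2, 1058 downstream of AGO3, 81 downstream of AGO1 and 12 downstream of DICER1.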

How the results depend on the processing

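The tags of the 10 genes came to 0.523 ± 0.00580 per 1000 table tags (SD, n = 2). They came to 0.737 with all deposited clusters, to 0.169 with a minimum of 30 tags, to 1.23 with the unnamed downstream clusters added (chosen after seeing the data), and to between 0.110 and 0.461 with 1 replicate alone and the minimum applied to it. The 3'UTR share of 64.3% was 56.1% with all clusters, 68.9% with a minimum of 30 tags, 68.7% with every label that includes the 3'UTR, 59.5% as a share of clusters, 46.0% without TNRC6B (chosen after seeing the data) and between 64.2% and 70.9% with 1 replicate left out. The intron share of 3.36% was 11.0% with all clusters, 0 with a minimum of 30 tags, 5.17% as a share of clusters, 5.20% without TNRC6B and between 0 and 2.55% with 1 replicate left out. The 4 genes above 100 tags were 3 to 5 under the other settings that count the tags of both replicates. They were between 0 and 3 with 1 replicate left out, and the 0 came from replicate 1 alone, which holds fewer tags. On another measure, 6 genes held over 100 tags per kb of cluster length. The 37 other pathway genes were 20 with a minimum of 30 tags, and 6 from replicate 1 alone against 33 from replicate 2 alone. The counts of genes and clusters with an unequal replicate split stayed at 0 under every alternative run, and the split could not be tested with a replicate left out, as 1 library remains. Without TNRC6B the 3'UTR share fell below the 47.1% of all genes, and AGO2 passed TNRC6B and DICER1 in tags with a minimum of 30 tags, from replicate 1 alone and with unnamed clusters added. Beyond the construction of the settings the cause was not tested. No paired analysis was possible because both libraries belong to 1 group. Depth limits DROSHA, XPO5, TNRC6C and AGO4 most.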
